A study of Mus musculus with 2 samples.

Results

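Serpins are a large family of proteins, most of which inhibit serine or cysteine proteases, and the liver secretes many of them into plasma. The mouse *Serpin* genes were followed in liver mRNA sequencing of 1 control library and 1 iFIRKO library. Members were the rows of both files whose symbol is Serpin, a clade letter from a to i and a number, and symbols with "-ps" (5 rows) were left out. The rule gave 63 genes of 53342 rows. All 63 were found in GENCODE M21 on GRCm38, which is the build mm10 of the labels, and 61 of them are annotated as protein-coding.

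iFIRKO mice carry Adipoq-CreERT2 and Insr flox/flox, so that tamoxifen removes the insulin receptor from cells in which the adiponectin promoter is active, the adipocytes. The labels give the control as WT, whereas the study's methods describe insulin receptor flox/flox mice without Cre as controls. Both groups were male mice 7 weeks old, both received tamoxifen (100 mg/kg on 5 consecutive days), and the liver was taken 3 days after the last dose. Each group is 1 library, and whether it came from 1 mouse or a pool is not given in the sources used here.

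A serpin presents a flexible stretch, the reactive centre loop, as bait. The protease cuts 1 bond of the loop, stays bound to it and is dragged across the inhibitor, where it is distorted and inactivated. The residues around that bond decide largely which protease is caught. In the liver, antitrypsin (*Serpina1*) and the antichymotrypsin-like *Serpina3* genes act on leukocyte and tissue proteases, antithrombin (*Serpinc1*) and heparin cofactor II (*Serpind1*) on thrombin, and α2-antiplasmin (*Serpinf2*) on plasmin. Some members inhibit nothing and carry hormones (*Serpina6*, *Serpina7*) or fold collagen (*Serpinh1*), and clade B members work mostly inside cells.

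Values are normalized reads, the linear form of the log2 normalized read counts that were deposited. The libraries held 42003900 (control) and 41579630 (iFIRKO) normalized reads, from an estimated 21138484 and 20652740 read pairs. A gene was compared when either library held 41.8 normalized reads or more, which is a CPM of 1 (1 read in 1000000) by the mean total. The log2 fold change is iFIRKO over control after 4.18 normalized reads were added to both, and a gene was counted as higher or lower when it differed by more than 1.5-fold. Ranges in brackets are 95% exact Clopper-Pearson intervals on estimated read pairs. They cover counting error only and compare these 2 libraries, not the genotypes, because without replicates no test between genotypes is possible. Fewer cells of a type and less RNA per cell cannot be told apart in bulk liver.

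Of the 63 serpins, 28 reached the minimum, and each of them did so in both libraries. *Serpina7*, which encodes thyroxine-binding globulin, and *Serpinb8*, an intracellular inhibitor of furin, were higher in iFIRKO liver. *Serpina3f*, 1 of the antichymotrypsin-like copies, was lower. The 2 higher genes are 7.14% of the serpins compared, where 4.46% of all 13400 genes compared were higher. The 1 lower gene is 3.57%, where 7.28% of all genes were lower. The other 25 serpins lay within 1.5-fold.

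Most of the differences among the 28 serpins pointed downwards. The log2 fold change was below 0 for 20 of the 28 serpins (71.4%), against 48.7% of all genes compared, and the median was -0.13 against 0.01. Among the 8380 genes of all kinds with a CPM of 10 or more, 45.0% were below 0. The counting interval lay below 0 for 19 serpins and above 0 for 6, and it held 0 for 3, among them *Serpina11* and *Serpine2*.

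**Figure D1:**
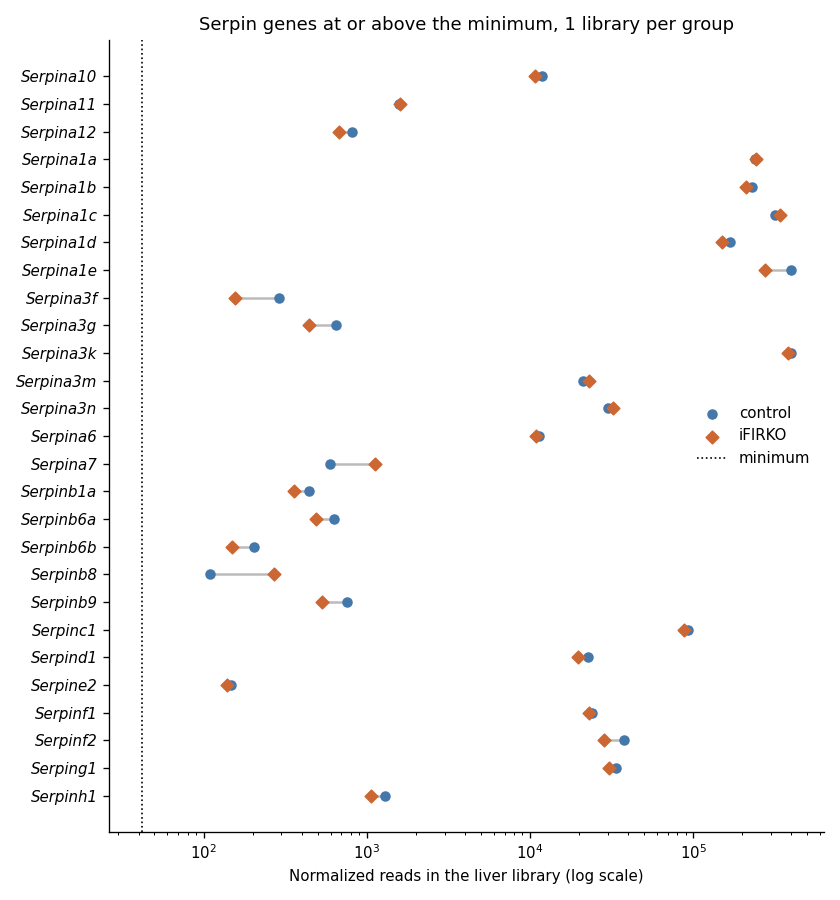
Normalized reads (log axis) of 27 of the 28 serpins at or above the minimum of 41.8 (dotted line), with the control library as circles and the iFIRKO library as diamonds. The gaps are widest for *Serpina7* and *Serpinb8*, where the iFIRKO point is to the right, and *Serpina3f*, where it is to the left. Smaller gaps to the left include those of *Serpina3g*, *Serpina1e*, *Serpinb9* and *Serpinb6b*.

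All serpin rows together held 4.86% of the normalized reads in control liver and 4.51% in iFIRKO liver, a log2 ratio of -0.12 (-0.13 to -0.12). Most of that gap lay in a single gene. With *Serpina1e* left out, a choice made after its value was seen, the ratio of the sum was -0.04. Without *Serpina3k*, the row with the highest mean level of reads, it was -0.14.

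The *Serpina1* copies encode α1-antitrypsin, the main plasma inhibitor of neutrophil elastase. Humans have a single gene, and the mouse has several copies side by side on chromosome 12. The coding sequences of the 5 copies with reads were 96.3% to 98.5% identical over their 10 pairs. In the loop printed here, 6.35% to 12.7% of the bases differed within a pair, against 0.850% to 3.31% of the coding bases outside it. The stretches are shown because these near-identical genes differ more in them than over the rest of the coding sequence. Each is the coding strand, 5′ to 3′, of the last coding exon (exon 5 of 5), from GENCODE M21 transcripts on GRCm38. Capitals mark the codons on either side of the bond that is cut, found by counting 17 codons from the conserved glutamate at the start of the loop to the residue before the bond.
Serpina1a (chr12:103853774-103853836, minus strand): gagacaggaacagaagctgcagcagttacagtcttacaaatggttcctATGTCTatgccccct
Serpina1b (chr12:103728341-103728403, minus strand): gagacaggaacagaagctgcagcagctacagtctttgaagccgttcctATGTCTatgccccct
Serpina1c (chr12:103895111-103895173, minus strand): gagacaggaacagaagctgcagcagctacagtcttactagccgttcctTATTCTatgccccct
Serpina1d (chr12:103763779-103763841, minus strand): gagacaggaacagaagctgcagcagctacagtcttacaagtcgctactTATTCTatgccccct
Serpina1e (chr12:103947117-103947179, minus strand): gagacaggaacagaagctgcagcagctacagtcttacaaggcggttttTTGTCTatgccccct

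By translation of these codons, serine follows the bond in all 5 copies. The residue before it is methionine in *Serpina1a* and *Serpina1b*, tyrosine in *Serpina1c* and *Serpina1d*, and leucine in *Serpina1e*. Methionine there is the residue of human α1-antitrypsin that fits elastase.

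*Serpina1e* had 400017 normalized reads in control liver and 275765 in iFIRKO liver. It was 1.45-fold lower, just inside the limit of 1.5-fold, with a log2 fold change of -0.54 (-0.55 to -0.53). The other copies moved less and not in 1 direction. *Serpina1c* had 316865 reads in control liver and 340459 in iFIRKO liver, a log2 fold change of 0.10, and *Serpina1a* had 239194 and 243651, a log2 fold change of 0.03. *Serpina1b* had 228334 and 210222 reads, which gives -0.12, and *Serpina1d* had 169098 and 150467, which gives -0.17. The 2 copies with methionine before the bond did not share a direction, nor did the 2 with tyrosine. *Serpina1f* was listed at 0 in both libraries.

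The order of the copies by normalized reads per kilobase of transcript, which allows levels of different genes to be compared, was therefore not the same. In the control library *Serpina1e* was first at 253979 reads per kilobase, followed by *Serpina1c* at 232818. In the iFIRKO library *Serpina1c* was first at 250154 and *Serpina1e* second at 175089. *Serpina1a* (151293 and 154112), *Serpina1b* (129588 and 119308) and *Serpina1d* (121304 and 107939) followed in that order in both.

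The sum of the *Serpina1* copies was 1353508 normalized reads in control liver and 1220564 in iFIRKO liver, a log2 ratio of -0.15 (-0.15 to -0.14). Without *Serpina1e* it was -0.01. *Serpina1e* gave 29.6% of the reads of the copies in control liver and 22.6% in iFIRKO liver, a difference of -6.96 percentage points. *Serpina1c* went from 23.4% to 27.9% and *Serpina1a* from 17.7% to 19.96%, while *Serpina1b* (16.9% and 17.2%) and *Serpina1d* (12.5% and 12.3%) differed by less.

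These shares depend on how reads were divided among the copies, which is not given in the sources used here. Of all stretches of 50 bases in the longest transcript, 64.4% were found in no other gene for *Serpina1e*, 64.2% for *Serpina1b*, 49.1% for *Serpina1d*, 32.6% for *Serpina1a* and 25.8% for *Serpina1c*. The values of single copies are uncertain for that reason, and the sum is the safer measure. The annotated span of *Serpina1b* also covers *Serpina1d* on the same strand, and *Serpina1c* overlaps B430119L08Rik on the opposite strand.

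**Figure D2:**
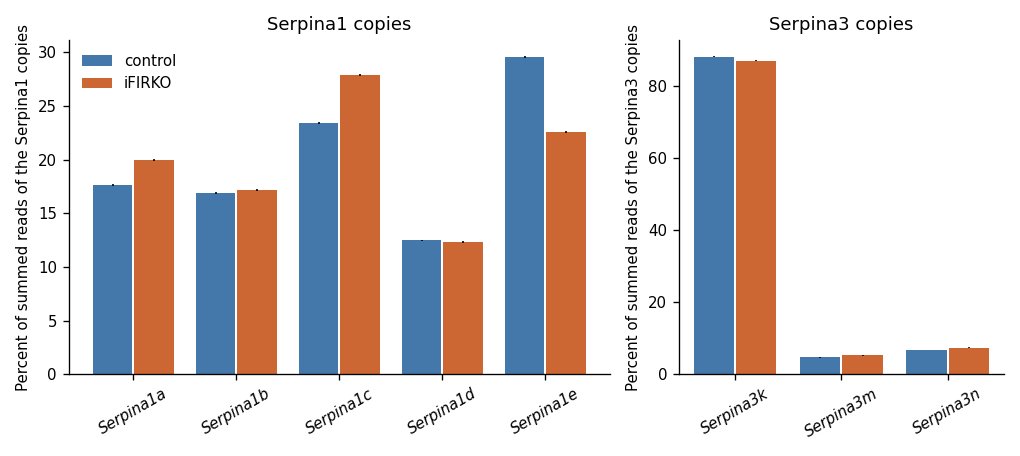
Share of the summed normalized reads (percent) of each of the 5 *Serpina1* copies with reads, left, and of the 3 *Serpina3* copies with most reads, right, in the control (blue) and iFIRKO (orange) library, with the error bars (95% counting intervals) barely visible. *Serpina1e* is the tallest bar of its family in control liver at 29.6% and *Serpina1c* in iFIRKO liver at 27.9%, while *Serpina3k* holds 88.3% and 87.2% of its family.

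The *Serpina3* genes correspond to the single human antichymotrypsin gene and form a second row of copies on chromosome 12, with 11 members in the files. *Serpina3k* is a kallikrein-binding inhibitor of plasma, *Serpina3n* an acute phase inhibitor of granzyme B, and *Serpina3g* an inhibitor of lysosomal cathepsins that works inside leukocytes. The loops of the 5 copies above the minimum are shown because of the residues they place around the bond. They come from the last coding exon (exon 5 of 5, and exon 6 of 6 in *Serpina3f*), with the same codons in capitals. The count of 17 codons is a convention here, since the bond that is cut was not looked up.
Serpina3k (chr12:104345263-104345325, plus strand): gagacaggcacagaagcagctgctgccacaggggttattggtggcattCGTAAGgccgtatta
Serpina3m (chr12:104393763-104393825, plus strand): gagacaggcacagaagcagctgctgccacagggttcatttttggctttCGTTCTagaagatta
Serpina3n (chr12:104413442-104413504, plus strand): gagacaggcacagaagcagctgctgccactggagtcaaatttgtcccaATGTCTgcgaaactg
Serpina3f (chr12:104220239-104220301, plus strand): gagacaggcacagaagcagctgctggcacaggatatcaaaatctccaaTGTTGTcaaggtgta
Serpina3g (chr12:104241066-104241128, plus strand): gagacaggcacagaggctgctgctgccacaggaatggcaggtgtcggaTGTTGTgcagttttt

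The codons read as arginine and lysine in *Serpina3k*, arginine and serine in *Serpina3m*, and methionine and serine in *Serpina3n*. *Serpina3f* and *Serpina3g* both have a pair of cysteines there. The latter are also the members of this group that were lower by most in iFIRKO liver.

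*Serpina3f* had 290.7 normalized reads in control liver and 155.4 in iFIRKO liver, a log2 fold change of -0.89 (-1.32 to -0.50), or 1.85-fold lower. *Serpina3g* had 648.0 and 443.3, a log2 fold change of -0.54 (-0.80 to -0.30), or 1.46-fold lower and within the limit. The 3 copies with most reads differed little. *Serpina3k* had 395551 and 381343 normalized reads (log2 fold change -0.05), *Serpina3n* had 30309 and 32410 (0.10), and *Serpina3m* had 21265 and 23058 (0.12). The sum of the 11 copies was 448138 and 437468 normalized reads, a log2 ratio of -0.03 (-0.04 to -0.03), and without *Serpina3k*, chosen after its value was seen, the ratio turned to 0.09.

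*Serpina3k* was the gene with the third highest level per kilobase among the serpins in control liver (192295) and the second highest in iFIRKO liver (185388). It gave 88.3% of the reads of the *Serpina3* copies in control liver and 87.2% in iFIRKO liver. These copies are easier to tell apart than the *Serpina1* copies, with 80.9% to 93.1% of stretches of 50 bases in no other gene for the 5 above the minimum. The annotated span of *Serpina3m* covers *Serpina3k*, however.

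The other 6 *Serpina3* copies were below the minimum. *Serpina3h* had 33.0 normalized reads in control liver and 24.0 in iFIRKO liver, and *Serpina3i* had 22.1 and 8.15. *Serpina3c* had 9.34 and 17.3, *Serpina3a* 5.58 and 5.13 and *Serpina3j* 4.47 and 1.96. The remaining copy was listed at 0 in control liver and at 1.53 in iFIRKO liver. The last 3 of these are below 3 read pairs in both libraries (5.96 and 6.04 normalized reads), which is the limit that a count of 0 allows.

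**Figure D3:**
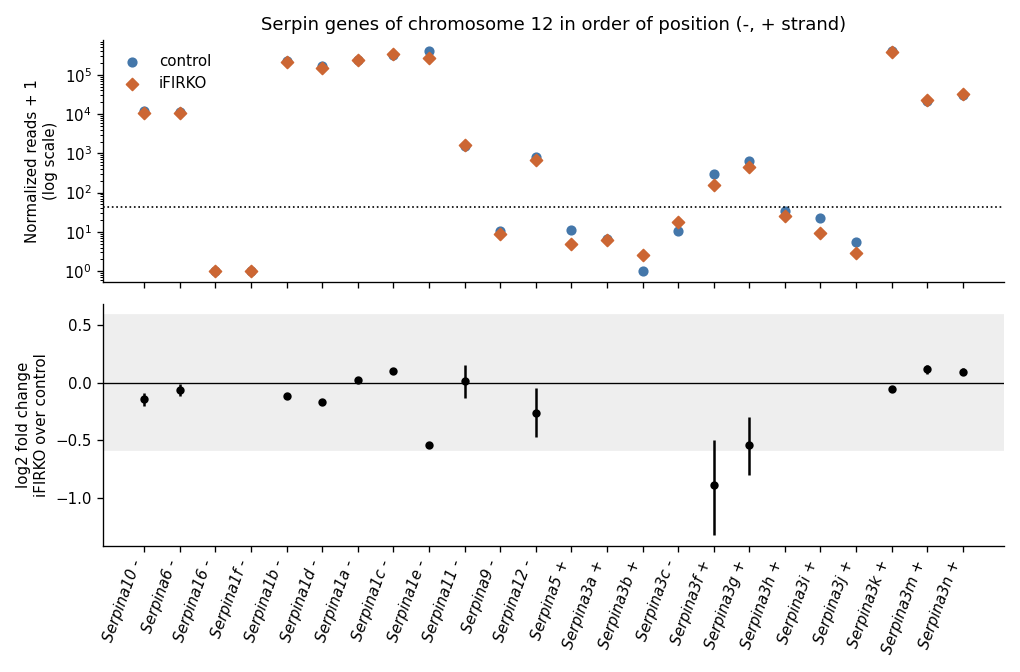
The 24 serpins of chromosome 12 in order of position, with the sign of the strand after each name: normalized reads plus 1 on a log axis in the upper panel (dotted line, the minimum) and log2 fold change with its 95% counting interval in the lower panel (grey band, within 1.5-fold; 14 genes). *Serpina3k* and the 5 *Serpina1* copies with reads stand far above genes at 0 nearby, and of the 14 only *Serpina3f*, at -0.89, leaves the band, with *Serpina1e* and *Serpina3g* near its lower edge.

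The 24 serpins of chromosome 12 hold the *Serpina1* and *Serpina3* copies and their neighbours, and the log2 fold change was below 0 for 9 of the 14 compared. On chromosome 13, where 15 clade B members lie, 4 were compared and all 4 were below 0. On chromosome 1, 3 of 14 were compared, and *Serpinb8* was the member above 0. Of all genes compared 48.7% were below 0, and of all serpins compared 71.4%, and the counts by chromosome are small.

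Of the carrier serpins, thyroxine-binding globulin was the gene that differed. *Serpina7*, on the X chromosome (chrX:139079257-139085236, minus strand), had 591.8 normalized reads in control liver and 1125 in iFIRKO liver. The log2 fold change was 0.92 (0.72 to 1.13), or 1.89-fold higher. All of its stretches of 50 bases were found in no other gene. *Serpina6*, which encodes corticosteroid-binding globulin, had 11422 and 10917 normalized reads, a log2 fold change of -0.07 (-0.12 to -0.01).

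Of 15 genes for hormone ligands and receptors of carrier serpins, 13 were compared. Among them 1 was higher and 0 lower, with a median log2 fold change of -0.03. Of all genes compared, 4.46% were higher and 7.28% lower. The higher gene was *Enpep*, the aminopeptidase that trims angiotensin, with 3957 and 6123 normalized reads (0.63). Transthyretin (*Ttr*), another liver carrier of thyroxine, had 203980 and 249350 normalized reads, a log2 fold change of 0.29. Retinol-binding protein 4 (*Rbp4*), which travels with transthyretin, had 77974 and 69319 (-0.17).

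Among the serpins of clotting and fibrinolysis, all 5 secreted liver inhibitors were somewhat lower in iFIRKO liver. α2-Antiplasmin (*Serpinf2*), which blocks plasmin, showed the widest gap, with 37629 normalized reads in control liver and 28596 in iFIRKO liver. Its log2 fold change was -0.40 (-0.43 to -0.36), or 1.32-fold lower. Heparin cofactor II (*Serpind1*) had 22592 and 19599 normalized reads (-0.20), and the protein Z-dependent inhibitor of factor Xa (*Serpina10*) had 11899 and 10760 (-0.15). C1 inhibitor (*Serping1*), which also restrains kallikrein and complement, had 33472 and 30365 (-0.14).

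Antithrombin (*Serpinc1*, chr1:160978585-161005863, plus strand) had 93160 and 87640 normalized reads, a log2 fold change of -0.09 (-0.11 to -0.07). Its loop lies in exon 8 of 8 and is shown as that of the chief thrombin inhibitor. By the same count the bond lies between arginine and serine, and arginine before the bond is what thrombin cuts after.
Serpinc1 (chr1:161002293-161002355, plus strand): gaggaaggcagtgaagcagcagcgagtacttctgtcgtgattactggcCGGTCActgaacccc

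*Serpine2*, protease nexin 1, had 148.1 normalized reads in control liver and 138.9 in iFIRKO liver, with a log2 fold change of -0.09 (-0.59 to 0.39). With an interval this wide no difference was detectable at this depth. The protein C inhibitor (*Serpina5*) was below the minimum in both libraries at 9.94 and 4.03 normalized reads.

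The proteases that these serpins are known to act on were described as a list of 32 genes. The list also held *Mpo*, which encodes a peroxidase and not a protease and was below the minimum. Of the 27 compared, 0 were higher and 8 were lower, 29.6% of them against 7.28% of all genes, and the median log2 fold change was -0.24. Of the 8, *St14*, *Gzma*, *Gzmb* and *Plat* were below the minimum in iFIRKO liver. They were compared only through the control library, where they were higher, so the count leans towards lower genes. The clotting proteases and plasminogen made in the liver were not among the 8, but some lay close to the limit. Factor VII (*F7*) had 4983 and 3346 normalized reads, a log2 fold change of -0.57 (-0.67 to -0.48), and factor XI (*F11*) had 3643 and 2511 (-0.54), while factor X (*F10*) was at -0.32. These 3 were named after their values were seen. Prothrombin (*F2*) had 66014 and 63923 normalized reads (-0.05), and plasminogen (*Plg*), the target of α2-antiplasmin, had 102750 and 81575 (-0.33).

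Most of the 8 lower genes were of low level, except *Prtn3* and *Ctss*. Proteinase 3 (*Prtn3*) had 2168 and 838.6 normalized reads, a log2 fold change of -1.37, and cathepsin S (*Ctss*) had 3930 and 2322 (-0.76). *Prtn3* had more reads than the neutrophil markers summed (733.9 and 286.3), and the cells that gave its reads were not identified. The granzymes *Gzmb* (61.6 and 24.9) and *Gzma* (49.7 and 24.2) and the plasminogen activators *Plau* (103.3 and 54.0) and *Plat* (52.6 and 31.8) had few reads, and the intervals of *Gzma* and *Plat* held 0. The epithelial proteases *St14* (74.9 and 14.1) and *Prss8* (172.1 and 110.8) completed the list. The other 5 genes of the list were below the minimum, and 2 of them were at 0 in both libraries.

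Pigment epithelium-derived factor (*Serpinf1*), a secreted member that inhibits no protease, had 23960 and 23025 normalized reads, a log2 fold change of -0.06. Hsp47 (*Serpinh1*), the chaperone of collagen in the endoplasmic reticulum, had 1288 and 1058, a log2 fold change of -0.28 (-0.45 to -0.12). Of 10 collagen genes, its clients, 0 were higher and 0 lower, where 4.46% of all genes were higher and 7.28% lower. Their median was 0.13, with a range from -0.12 to 0.31. *Col3a1* had 2598 and 2919 normalized reads (0.17) and *Col4a1* 2615 and 2860 (0.13). Hsp47 and these clients lay on opposite sides of 0, but some other clients lay below 0 like Hsp47.

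The remaining clade A members compared were *Serpina11* and vaspin (*Serpina12*), first described as an adipokine. *Serpina11* had 1577 and 1591 normalized reads, a log2 fold change of 0.01 (-0.13 to 0.16), and 56.1% of its stretches of 50 bases were its own because Gm28577 overlaps it on the same strand. *Serpina12* had 814.5 and 680.2, a log2 fold change of -0.26 (-0.47 to -0.05). *Serpina9* was below the minimum at 9.48 and 8.05 normalized reads.

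Clade B holds 27 members, most of which protect the cell that makes them from its own or incoming proteases, and only 5 reached the minimum. *Serpinb8* (chr1:107590006-107610484, plus strand) had 109.5 normalized reads in control liver and 269.8 in iFIRKO liver, from an estimated 55 and 134 read pairs. It was 2.41-fold higher, with a log2 fold change of 1.27 (0.84 to 1.78). No other serpin compared moved this far in either direction, and 99.8% of its stretches of 50 bases were its own.

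The other 4 members of clade B were all lower within 1.5-fold. *Serpinb9*, the inhibitor of granzyme B in lymphocytes and other cells, had 755.3 and 532.6 normalized reads, a log2 fold change of -0.50 (-0.73 to -0.27), or 1.41-fold lower. *Serpinb6a* had 631.2 and 487.2 (-0.37), and *Serpinb6b* had 204.7 and 149.0 (-0.45). *Serpinb1a*, an inhibitor of neutrophil proteases, had 445.5 and 360.4 (-0.30).

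Of the 22 clade B members not compared, 14 were at 0 in both libraries. *Serpinb1c* had 8.38 and 20.1 normalized reads and *Serpinb5* 1.99 and 2.01, and the other 6 had reads in 1 library. Neuroserpin (*Serpini1*), a serpin of neurons, had 19.9 and 20.1 normalized reads. Over the whole family 35 serpins were not compared, of which 17 were at 0 in both libraries, 10 had reads in both and 8 in 1, and the highest of these values was 33.0.

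Summed by clade, the log2 ratio was -0.12 for clade A (-0.12 to -0.11), -0.25 for clade B (-0.37 to -0.12) and -0.25 for clade F (-0.28 to -0.23). Clades C, D, G and H hold 1 gene each, described above. Clade I, with 2 members below the minimum, was at 0.02 (-1.40 to 1.44). Of these 8 clade sums, the 7 with an interval that did not hold 0 were lower in iFIRKO liver. The clade B sum was lower although its member *Serpinb8* was higher.

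**Figure D4:**
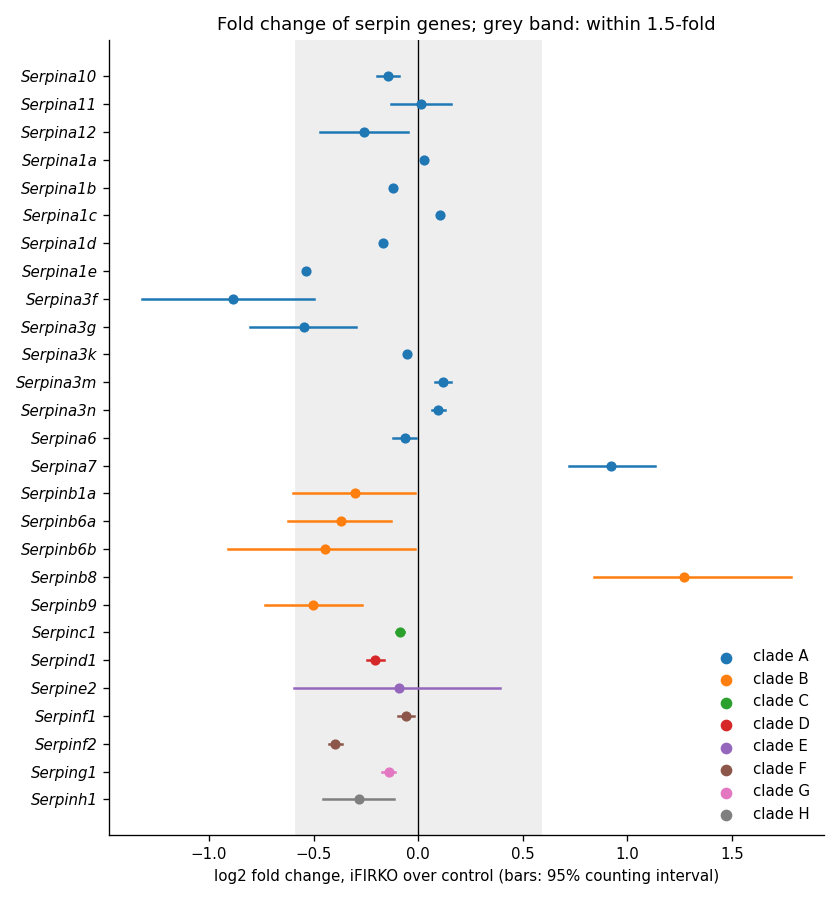
Log2 fold change, iFIRKO over control, of 27 of the 28 serpins compared, coloured by clade, with 95% counting intervals as bars and the range within 1.5-fold in grey. *Serpinb8* (1.27) and *Serpina7* (0.92) lie to the right of the band and *Serpina3f* (-0.89) to the left, and 20 of the points lie left of 0.

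Markers of blood and resident immune cells were also lower in iFIRKO liver, like the 4 clade B members above. All 13 Kupffer cell and macrophage markers were compared and 10 were lower, 76.9% of them against 7.28% of all genes. Their median log2 fold change was -0.63, and their sum went from 49146 to 31636 normalized reads. Of 11 neutrophil markers 3 were compared and 3 were lower (sum 733.9 and 286.3), with *S100a9* at 227.5 and 64.7. Of 12 T, NK and B cell markers 4 were compared and 3 were lower (sum 519.7 and 235.7), with *Cd79a* at 113.4 and 17.1. No marker of these 3 lists was at 0 in both libraries. The lower markers *S100a8*, *Cd79a* and *Gzma* were below the minimum in iFIRKO liver and were compared only through the control library. The part of these cells in the lower values of *Serpinb1a*, *Serpinb6a*, *Serpinb6b*, *Serpinb9*, *Serpina3f* and *Serpina3g* was not tested.

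Hepatocyte markers, which define the tissue, were high in both libraries. Of 12 listed, *Tf* had no row under that symbol. The other 11 were compared, 0 were higher and 1 was lower, with a median of -0.17. The 1 lower gene is 9.09% of those compared, near the 7.28% of all genes that were lower. Albumin (*Alb*) had 4167154 and 3944155 normalized reads (-0.08), and the lower gene was *Apoa1* at 168382 and 87600 (-0.94). Of 10 endothelial markers 2 were lower (median -0.37), and of 10 stellate and fibroblast markers 0 were higher or lower (median 0.10). None of 5 cholangiocyte markers compared was higher or lower (median -0.23), and 1 of 3 platelet markers was lower. Of 9 pancreas markers 6 were at 0 in both libraries. Only *Cela1* was compared, and it was lower at 788.4 and 294.2 (-1.41, -1.71 to -1.15).

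The other inhibitors of plasma that are not serpins had a median close to that of the serpins, as did the hepatocyte markers above (-0.17). Of 26 genes 23 were compared, with 1 higher, 1 lower and a median of -0.17. The 1 lower gene is 4.35%, where 7.28% of all genes were lower and 4.46% higher. *Wfdc2*, a small secreted inhibitor, had 142.7 and 353.7 normalized reads (1.28), and fetuin B (*Fetub*) had 19376 and 12442 (-0.64). Those with most reads were fetuin A (*Ahsg*, 292381 and 225877, -0.37), *Pzp* (206973 and 177781, -0.22) and *Itih4* (166307 and 154324, -0.11).

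The acute phase list shares liver control by interleukin 6 with several serpins. It had 23 genes compared, 0 higher and 3 lower, where 4.46% of all genes were higher and 7.28% lower. The median of the list was -0.19. The lower genes were *Apcs* (10893 and 6011 normalized reads, -0.86), *Orm3* (852.7 and 437.8, -0.96) and *Cd14* (334.4 and 218.6, -0.60). Hemopexin (*Hpx*) was at -0.37, haptoglobin (*Hp*) at -0.33 and fibrinogen α (*Fga*) at -0.14. Of the same list 5 genes lay above 0, named here after their values were seen: *Saa3* at 0.49, *Saa2* at 0.40, *Lcn2* at 0.34, *Saa1* at 0.13 and *Mt2* at 0.10. *Serpina3n*, the acute phase serpin, was at 0.10.

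Of 24 transcription factors and signalling genes known to act on serpin genes of the liver, 0 were higher and 1 was lower, with a median of -0.11. That is 4.17% lower, where 7.28% of all genes were. *Tgfb1*, a cytokine, was the lower gene at 524.5 and 313.7 normalized reads (-0.73). *Hnf4a* (-0.04), the growth hormone receptor *Ghr* (0.00) and *Stat3* (-0.10) were nearly level. Of 27 genes for folding, export and disposal of serpins, *Ero1a* had no row under that symbol. The other 26 were compared, 0 were higher and 1 was lower (3.85%), with a median of 0.05. The lower gene was *Derl3*, part of the machinery that withdraws misfolded proteins, at 105.0 and 12.1 normalized reads (-2.75). It was below the minimum in iFIRKO liver and was compared only through the control library. The chaperones calreticulin (*Calr*, 46287 and 31999, -0.53) and *Hsp90b1* (41867 and 31315, -0.42) were lower within 1.5-fold, while *Hspa5* was at 0.07.

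All 19 cofactors and clearance receptors were compared, with 2 higher, 0 lower and a median of -0.04. Of all genes compared, 4.46% were higher and 7.28% lower. The heparan sulfate proteoglycan *Gpc1* had 472.6 and 841.4 normalized reads (0.83), and *Lrp2*, a receptor of the same family as the liver's *Lrp1*, had 39.7 and 64.4 (0.64, -0.15 to 1.58). *Lrp2* was below the minimum in control liver and was compared only through the iFIRKO library, where it was higher. *Lrp1*, which clears serpin and protease complexes, was at 39632 and 39388 normalized reads (-0.01). Vitronectin (*Vtn*), an adhesive glycoprotein of plasma, was at -0.08.

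**Figure D5:**
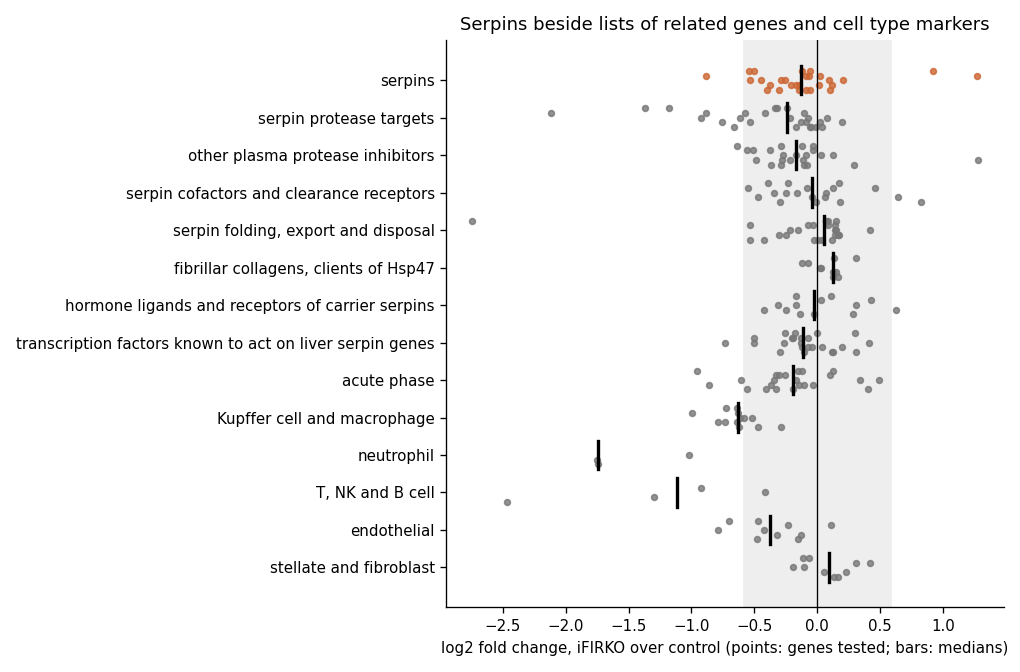
Log2 fold change, iFIRKO over control, of each gene compared in the serpins (orange) and in 13 lists of related genes or cell type markers (grey), with the median of each as a black bar and the range within 1.5-fold shaded. The serpin median of -0.13 lies near those of the transcription factors (-0.11), the plasma inhibitors (-0.17) and the acute phase genes (-0.19). The macrophage, neutrophil and lymphocyte medians lie left of the shaded range.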

How the data were processed

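Liver mRNA was sequenced from 1 control and 1 iFIRKO sample on an Illumina NovaSeq after a TruSeq stranded preparation. The files that the authors deposited list each gene symbol with a normalized read count on the log2 scale. Scaled counts of 1 or less appear as 0, and the labels give the build mm10. The aligner, the counter, the annotation, the use of strand and the handling of reads that match several copies are not given in the sources used here. Here the values were made linear. Genes were compared when either library held 41.8 normalized reads, a CPM of 1, with a pseudocount of 4.18 and the study's limit of 1.5-fold. The commonest low value was taken as 1 read pair (1.99 normalized reads in the control library, 2.01 in the iFIRKO library). Then 40.6% and 41.1% of values under 50 pairs were whole within 0.01 pair, so depths are estimates and no count test was run. With 1 library per group no p-value was computed.

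Every serpin at the minimum could be named, those at a CPM of 10 with full values. Serpins below it were named where listed above 0 in both libraries, and of other lists the members past 1.5-fold and up to 3 of the highest level. The values of 1 member counted among the 28 compared are not reported here. The members and lists were chosen with earlier results of these data known. Positions, transcript lengths, shared stretches and loops came from GENCODE M21. Values were computed with scipy 1.17.1, pandas 2.3.3, edlib 1.3.9.post1 and numpy 2.4.6 under Python 3.11.15, and figures with matplotlib 3.10.9. The fold and interval code was tested on simulated data. Alternatives were other pseudocounts, minimums, scalings and fold limits.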

Additional observations from a re-analysis of the deposited data

How the results depend on the processing

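With no minimum on reads, 4 serpins were higher and 4 lower, against 9.004% and 12.04% of all genes, and with a limit of 2-fold 1 was higher (*Serpinb8*) and 0 were lower, against 1.56% and 1.99%. Under the other settings of pseudocount, minimum, scaling and repeated symbols the counts stayed at 2 and 1. The median of the serpins compared was between -0.143 and -0.121 under every setting tried.

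Scaling by the median ratio of genes, by totals without the 20 most abundant genes and by totals without the serpin rows shifted log2 values by -0.01, -0.01 and 0.01. The ratio of all serpins was -0.134, -0.135 and -0.114. That of clade A was -0.130, -0.131 and -0.110, that of the *Serpina1* copies -0.160, -0.161 and -0.140, and that of the *Serpina3* copies -0.045, -0.047 and -0.025. Without its highest row the sum of all serpins was at -0.140. With *Serpina1e* left out, chosen after its value was seen, all serpins were at -0.038 and the *Serpina1* copies at -0.013. Without *Serpina3k*, chosen in the same way, the *Serpina3* copies turned to 0.094. Of 140 values of single serpins under alternatives, 8 left their counting interval, 0 changed sign and 0 crossed the limit.

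No paired analysis was possible because there is 1 library on either side. No replicate was left out for the same reason, and the spread between mice was not measured. Reads that match several copies limit the values of single *Serpina1* and *Serpina3* genes, and depth limits the genes near the minimum, such as *Serpine2*.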

Other observations

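One of the 5 rows with "-ps" that the rule left out lies among the *Serpin* symbols with a clear level and was picked after its value was seen. Serpina4-ps1, a pseudogene by its symbol, had 776.6 normalized reads in control liver and 1628 in iFIRKO liver. Its log2 fold change was 1.06 (0.89 to 1.25), or 2.09-fold higher, a wider gap than that of any of the 28 serpins compared except *Serpinb8*.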
